A study of Mus musculus with 12 samples.

Results

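Livers of mice fed a high fat diet without N-acetylcysteine (HFD, 4 of the 12 liver RNA libraries) were set against the other 8 libraries together. The members were chosen by label alone: the 4 HFD libraries on one side, and on the other side 4 libraries from normal fat diet mice (NFD) and 4 from high fat diet mice whose drinking water held N-acetylcysteine at 2 g per litre (NAC_HFD). All 12 libraries came from C57BL/6 liver. The diets were given for 14 weeks; an age of 8 weeks is also stated, but not whether at the start or the end. The labels name no sex, no transgene and no pooling, and they do not say that the libraries of a group came from separate animals, so p-values measure the spread between these libraries, which may be technical. The contrast asks which transcripts were peculiar to the high fat diet when no N-acetylcysteine was given. The values are TPM, the share of transcripts that each gene takes after division by length, made by the authors for 19252 genes. The 11376 genes that reached 1 TPM in 4 or more libraries were tested.

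A high fat diet loads the hepatocyte with fatty acids, which are taken up by carriers such as Cd36, esterified to triglyceride and stored in lipid droplets, or burned in mitochondria and peroxisomes under the control of the receptor PPARalpha. Fatty livers are known for a rise of lipid droplet and PPARgamma target genes, for activation of resident macrophages and for a low grade of inflammation with interferon-responsive genes. N-acetylcysteine is a cysteine precursor that feeds glutathione synthesis, and thioredoxin is the other main thiol system of the cell.

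TPM keeps no read depth, so the depth of each library is unknown and no counting error can be given. Between 10864 and 11316 genes reached 1 TPM in each library, and mitochondrially encoded genes made up 8.91% to 12.6% of the gene table, with no separation of the HFD libraries in either measure. Hepatocyte markers were abundant in all 12 libraries, with Alb, the gene of serum albumin, at 22101 TPM or more. The mean log2(TPM + 1) of 26 male-biased liver genes was lower in HFD replicates 1 and 2 (7.41 and 7.72) and NAC_HFD replicates 3 and 4 (7.74 and 7.78) than in the other 8 libraries (8.28 to 8.69). In bulk liver, fewer cells of a type and less RNA per cell cannot be told apart.

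The HFD livers differed from the mean of both other groups in 110 of 11376 genes (0.967%), called at an adjusted p under 0.05 by limma on log2(TPM + 1). Of these, 100 were higher in HFD (0.879% of tested genes) and 10 lower (0.0879%). At an unadjusted p under 0.05 there were 1850 genes. Fold changes below are differences on the log2(TPM + 1) scale between the HFD mean and the average of the NFD and NAC_HFD means, and they understate the change of low genes. The median fold change of all tested genes was 0.05, and 62.7% of them were positive. Among the 100 higher genes the fold change ran from 0.32 to 2.74 with a median of 0.65, and 43 of them changed by less than 1.5-fold, 40 by 1.5-fold to 2-fold and 17 by 2-fold or more. The 10 lower genes fell by 0.50 to 0.97, with a median of -0.70. With the libraries rescaled by median-of-ratios factors the split became 42 higher and 10 lower, with quantile normalization 38 and 10, and with the gene table rescaled to a common sum 46 and 10. A core of 41 genes was called under all 3 scalings and without scaling. With every gene above 0 tested (19252 genes) 26 passed, among the named genes Cfd, Lgals1, Mogat1, Sema5b, Rab30, Slc13a3, Gpc1, Stap1, S100a10, Lect2, Apom and Cyp2c69. Of the 100 higher genes 14 met the expression filter only because the HFD livers did, so that a difference was built into their selection; those named below are Cfd, Themis, Mogat1, Sema5b, Stap1 and Mcm2, and Mogat1 and Mcm2 had 0 other libraries at 1 TPM.

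A second measure used no test and asked whether all 4 HFD libraries lay above, or all 4 below, each of the other 8. This held for 215 genes (1.89%), of which 189 were above (1.66%) and 26 below (0.229%). The split depended on the scaling: it was 117 above and 120 below with median-of-ratios factors, 93 and 159 with quantile normalization, and 119 and 52 with a common sum. The same measure set the NFD libraries apart from the rest in 485 genes (4.26%) and the NAC_HFD libraries in 318 (2.8%). Of the 3 groups HFD had the fewest genes set apart in these 12 libraries. By limma, NFD against both others gave 629 genes (5.53%) and NAC_HFD against both others 185 (1.63%), also more than the 110 of HFD. That order of HFD and NAC_HFD turned without NAC_HFD replicate 4 (92 for HFD and 19 for NAC_HFD), without NAC_HFD replicate 3 (70 and 61), without HFD replicate 3 (128 and 126) and with weights for each library (406 and 359). Of the 110 called genes, 73 were also set apart, 66 above and 7 below.

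The parts of the contrast differed in their counts. Against NFD alone the HFD livers differed in 316 genes (2.78%). Against NAC_HFD alone limma called 0 genes, with 1870 at an unadjusted p under 0.05 and a smallest adjusted p of 0.0515, while a fit with weights for each library called 157 and a fit with the replicate number as a block called 3. The count rose to 64 without NAC_HFD replicate 1, 23 without HFD replicate 3 and 10 without NFD replicate 3, and was 3 or fewer without any other library. What is described below as the untreated high fat state therefore rests on the pooled comparison, and no gene of it passed between HFD and NAC_HFD alone in the fit to all 12 libraries.

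The NAC_HFD and NFD livers, compared with each other without the HFD libraries, differed in 601 genes (5.28%). This second comparison says where the NAC_HFD livers lay for each gene of the first. Of the 110 called genes, 24 also passed there, 22 of them higher in NAC_HFD and higher in HFD, and 2 lower in both; over all tested genes 1.76% passed higher and 3.52% lower there. The remaining 86 did not pass there, which does not show that NAC_HFD and NFD were alike. The NAC_HFD mean lay between the other means for 76 of the 100 higher genes and at or below the NFD mean for 24. Of the 10 lower genes, 6 had NAC_HFD in between, 3 had it at or above NFD, and Cyp2c69 had it below HFD.

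**Figure D1:**
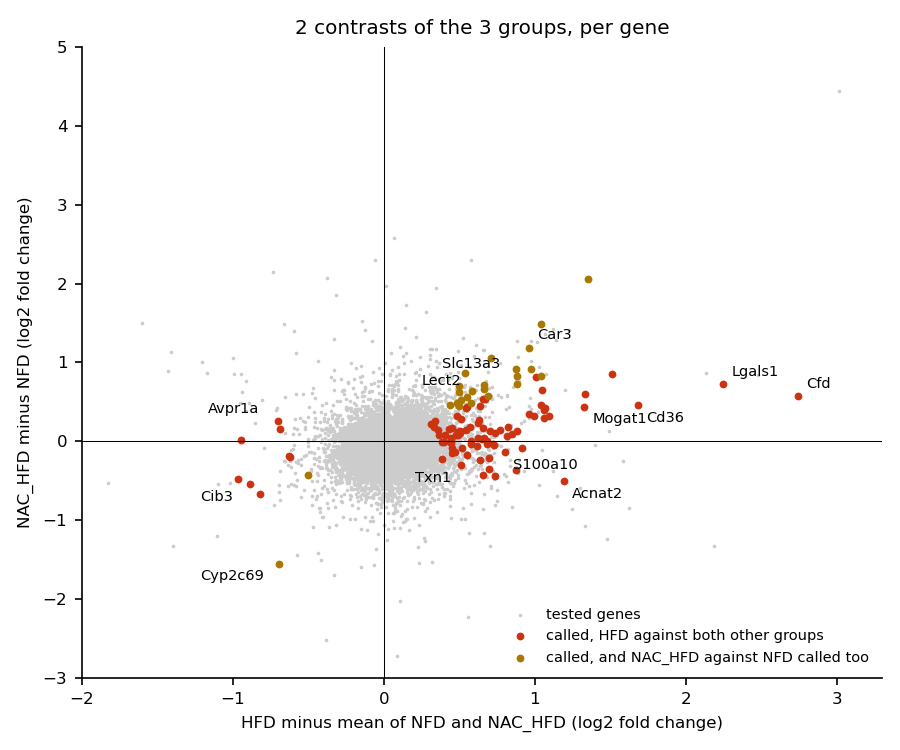
For each tested gene, the log2 fold change of HFD against the mean of both other groups (x axis) and of NAC_HFD against NFD (y axis), with the 110 genes called on the x axis in colour and the 24 of them that also passed on the y axis in ochre. Of the called genes Cfd and Lgals1 lie farthest to the right; Car3, Slc13a3 and Lect2 are among the 24 in ochre, and Acnat2 and Txn1 lie below the zero line of the y axis.

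The number of called genes moved with single libraries. Without HFD replicate 1 it was 11, without HFD replicate 2 it was 18 and without HFD replicate 4 it was 13, whereas without HFD replicate 3 it was 128. Without NFD replicate 1 it was 37 and without NFD replicate 4 it was 63. Leaving out NAC_HFD replicates 2 or 3 gave 70 each. With the 4 libraries low in male-biased genes left out together, which leaves 2 HFD and 2 NAC_HFD libraries, 0 genes were called. Of the 110 genes, 110 kept their direction and 109 had an unadjusted p under 0.05 by limma. Both counts were favoured in advance, because the 110 were called in a fit that held the same 8 remaining libraries. They therefore cannot show whether the result depends on the libraries left out. The part of the difference in male-biased genes in the result was not tested further. Among the 100 higher genes HFD replicate 1 was the highest of the 4 HFD libraries in 40 and HFD replicate 3 the lowest in 56. Without HFD replicate 3 the genes set apart rose from 215 to 576. Leaving out any library can only keep or raise this count, so only the size of the rise differs between libraries. In 11 genes the call held in each of the 12 fits that left out 1 library: among the named genes these are Mogat1, Sema5b, Rab30, Slc13a3, Stap1 and Lect2. Those fits kept the filter set on all 12 libraries, which Mogat1, Sema5b and Stap1 met only because the HFD livers did.

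**Figure D2:**
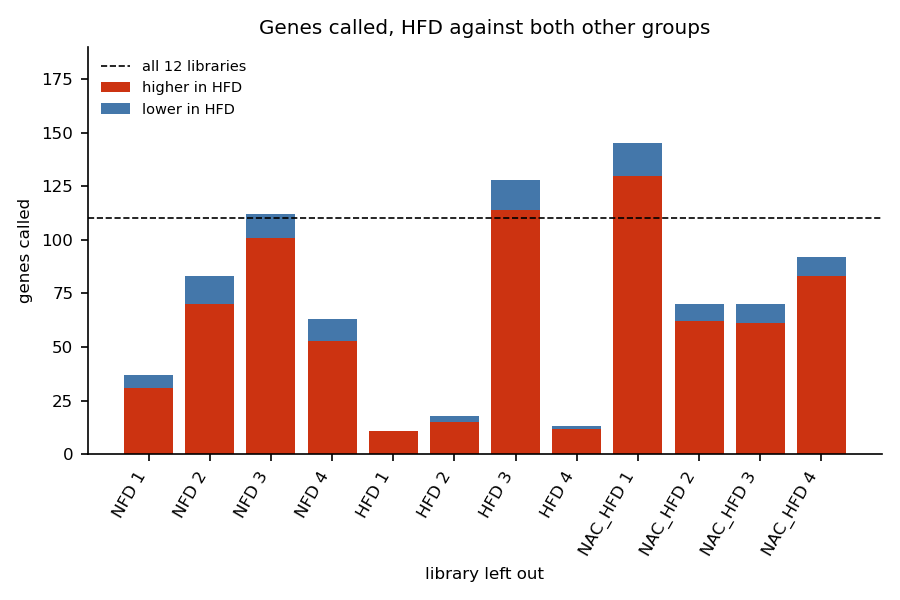
Genes called in HFD against both other groups when each library in turn was left out (bars, higher in HFD and lower in HFD stacked), with the count of 110 over all 12 libraries as a dashed line. The 3 shortest bars are those without HFD replicates 1, 4 and 2, at 11, 13 and 18 genes.

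Of the 28 tested genes of fatty acid uptake and lipid droplets, 4 were called higher in the HFD livers and 0 lower: Cd36, Mogat1, Fitm1 and Fabp2. The list had 22 positive members, and the median was 0.26 against 0.05 over all genes. Among all tested genes 0.879% were called higher and 62.7% were positive. The list's mean log2(TPM + 1) was higher in each of the 4 HFD libraries (5.27 to 5.44) than in the other 8 (4.76 to 5.17). This separation may have been favoured in advance, because the list was chosen with earlier results of these data known. It also holds Mogat1, which met the expression filter through HFD alone. Mogat1 (chr1:78511060-78606964, a protein-coding gene of build GRCm38, as are all genes placed below) encodes monoacylglycerol acyltransferase 1, which makes diacylglycerol for triglyceride synthesis. It stood at 4.2, 2.65, 1.34 and 3.41 TPM in the 4 HFD livers, at 0.35, 0.22, 0.17 and 0.39 TPM in NFD and at 0.92, 0.31, 0.91 and 0.88 TPM in NAC_HFD. The lowest HFD liver was above the highest of the other 8, and the fold change was 1.33 ± 0.18 (SE) with an adjusted p of 0.00460 (0.0160 with every gene above 0 tested, a fit that does not use the filter Mogat1 met through HFD alone). Cd36 (chr5:17781690-17888959), the fatty acid carrier, stood at 77.8, 69.4, 40.1 and 65.9 TPM in HFD, 15.9, 16.1, 11.1 and 20.99 TPM in NFD and 24.5, 12.1, 17.9 and 42.2 TPM in NAC_HFD. HFD replicate 3 lay just below NAC_HFD replicate 4, so the groups overlapped by 1 library, and the fold change was 1.68 ± 0.29 (adjusted p = 0.0283).

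Fitm1, an endoplasmic reticulum protein that helps triglyceride droplets form, rose by 1.05 ± 0.20 (adjusted p = 0.0377), from 12.5 ± 4.15 TPM (SD, n = 4) in NFD and 19.8 ± 4.801 TPM in NAC_HFD to 32.8 ± 4.71 TPM in HFD. Fabp2, a fatty acid binding protein of intestinal type, averaged 55.2 ± 17.95 TPM in NFD, 57.7 ± 6.96 TPM in NAC_HFD and 93.6 ± 13.9 TPM in HFD (fold change 0.73 ± 0.15, adjusted p = 0.0377). The other gut markers Vil1 and Muc2 were at 0.62 TPM or less in every library. Left-out fits separated these genes: Mogat1 passed in 12 of 12, Cd36 in 8, Fabp2 in 4 and Fitm1 in 3, with the highest adjusted p at 0.132 for Cd36 and 0.157 for Fitm1 without HFD replicate 1 and 0.164 for Fabp2 without HFD replicate 2. Fitm1 and Fabp2 passed under 0 of the 3 scalings. The left-out fits of Mogat1 used the filter that it met through HFD alone.

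Other lipid genes did not pass. Plin2, the main lipid droplet coat protein of hepatocytes, ranged over 179 to 299.9 TPM in HFD, 116 to 275 TPM in NFD and 74.9 to 177 TPM in NAC_HFD (fold change 0.57, interval -0.03 to 1.16, adjusted p = 0.335). Cidec, which fuses lipid droplets, stood at 13.6, 11.3, 5.69 and 11.7 TPM in HFD and 3.0, 1.41, 0.44 and 2.76 TPM in NAC_HFD, but NFD replicate 3 reached 15.3 TPM among NFD values of 1.58, 1.33, 15.3 and 4.65 TPM (adjusted p = 0.175). The nuclear receptor gene Pparg had a fold change of 0.42 with an interval from -0.27 to 1.10 (adjusted p = 0.551). Of the 20 lipogenesis genes tested 0 were called, and 0 passed an unadjusted p of 0.05 in either direction. Among them Fasn (fatty acid synthase) had a fold change of -0.22 (interval -0.83 to 0.39), Scd1 (stearoyl-CoA desaturase) 0.31 (interval -0.95 to 1.56) and their regulator Srebf1 -0.14 (interval -0.76 to 0.47), so sizeable changes in either direction stay within the error for these genes.

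Of the 32 tested genes of fatty acid oxidation and PPARalpha targets, 2 were called higher and 0 lower. In this list 29 were positive, and the median was 0.28. Over all tested genes 0.879% were called higher and 62.7% were positive. Both called members were Vnn1, the pantetheinase that releases cysteamine, and Hadh, a mitochondrial beta-oxidation dehydrogenase. Vnn1 (chr10:23894688-23905344) stood at 91.1, 72.2, 63.4 and 74.2 TPM in HFD, 33.98, 23.5, 34.4 and 45.1 TPM in NFD and 49.8, 26.97, 40.4 and 60.7 TPM in NAC_HFD. All 4 HFD livers were above the other 8, and the fold change was 0.96 ± 0.20 (adjusted p = 0.0475). Hadh rose by 0.55 ± 0.11 (adjusted p = 0.0371), with NAC_HFD replicate 4 inside the HFD range. Acnat2 (chr4:49374458-49408151), a peroxisomal enzyme of the acyl-CoA amino acid N-acyltransferase family that has close paralogs, stood at 79.1, 94.2, 52.2 and 69.6 TPM in HFD, 40.6, 36.6, 42.9 and 29.9 TPM in NFD and 21.9, 14.8, 45.2 and 30.2 TPM in NAC_HFD. Its fold change was 1.19 ± 0.25 (adjusted p = 0.0475), and NAC_HFD and NFD did not separate (-0.51, interval -1.13 to 0.11). These calls depended on single libraries. Hadh passed in 6, Vnn1 in 4 and Acnat2 in 3 of the 12 left-out fits, and without HFD replicate 1 the adjusted p was 0.208 for Vnn1, 0.178 for Hadh and 0.197 for Acnat2. Under each of the 3 scalings Vnn1 and Acnat2 no longer passed, and Hadh passed under 1. Cyp4a14, a classical PPARalpha target, had a fold change of -0.06 (interval -0.98 to 0.86, adjusted p = 0.961), and Fgf21, a PPARalpha-induced hormone, 0.73 (0.25 to 1.20, adjusted p = 0.137).

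**Figure D3:**
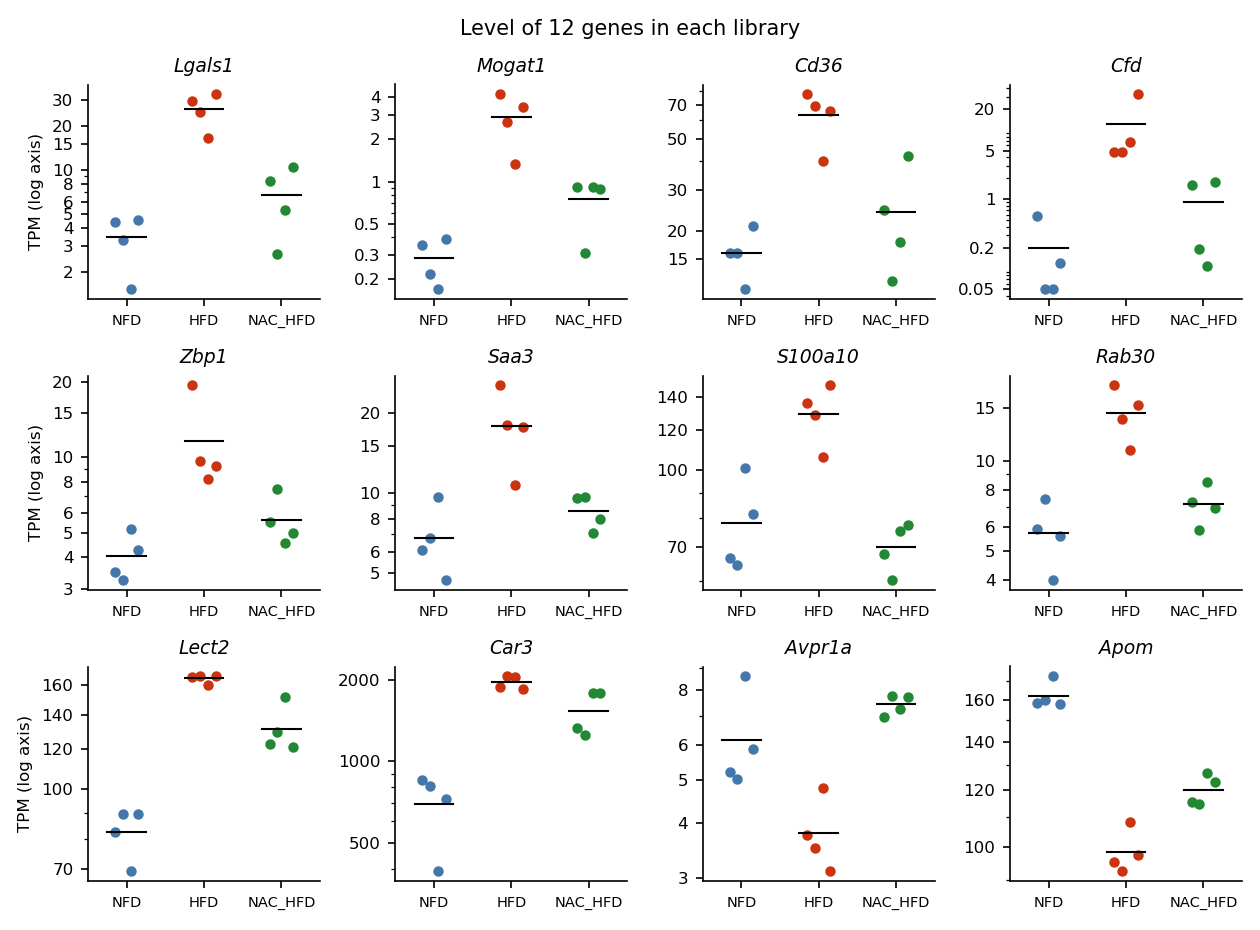
TPM of 12 genes in each library (points, log axis), with the group mean as a line. In 11 of the 12 panels the 4 HFD points lie wholly to one side of the other 8; in the Cd36 panel NAC_HFD replicate 4 exceeds the lowest HFD point.

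Galectins, S100 proteins, annexins and related cytoskeletal genes, which injured and lipid-laden liver cells and macrophages are known to express, were, among lists with at least 5 tested members, the other one whose mean was highest in all 4 HFD libraries (3.95 to 4.12 against 3.36 to 3.84 in the other 8). Of the 34 tested, 31 were positive, 4 were called higher, 0 lower and 5 were set apart, with a median of 0.25. Over all tested genes 62.7% were positive, 0.879% were called higher and 1.66% were set apart above. The list was chosen with earlier results of these data known, so the separation of its means may have been favoured in advance. Lgals1 (chr15:78926725-78930465), which encodes galectin-1, a sugar-binding protein, had the second largest fold change of the called genes. It stood at 29.2, 24.9, 16.5 and 32.7 TPM in HFD, 4.43, 3.33, 1.53 and 4.55 TPM in NFD and 8.38, 2.66, 5.28 and 10.5 TPM in NAC_HFD. Every HFD liver exceeded every other liver, with a fold change of 2.25 ± 0.32 (adjusted p = 0.0133), while the NAC_HFD and NFD livers overlapped (0.73, interval -0.07 to 1.53). Its single transcript carried the whole value.

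S100a10 and Anxa2 encode binding partners at the inner face of the plasma membrane. S100a10 (chr3:93555117-93564645) stood at 136, 129, 106 and 148 TPM in HFD, 66.7, 64.6, 101 and 81.5 TPM in NFD and 67.7, 60.1, 75.4 and 77.6 TPM in NAC_HFD, a fold change of 0.80 ± 0.13 (adjusted p = 0.0137). Anxa2 averaged 6.76 ± 0.556 TPM in HFD, 4.15 ± 0.363 TPM in NFD and 4.03 ± 0.992 TPM in NAC_HFD (0.62 ± 0.11, adjusted p = 0.0269). Both partners had all 4 HFD livers above the other 8. Lgals3 (galectin-3, a macrophage and stress gene) was low, at 2.72 ± 0.589 TPM in HFD, 1.74 ± 0.364 TPM in NFD and 1.04 ± 0.403 TPM in NAC_HFD (0.66 ± 0.14, adjusted p = 0.0468), and its HFD replicate 3 lay among the NFD livers. Lgals1 and S100a10 passed in 9 and 9 of the 12 left-out fits and under all 3 scalings, Anxa2 in 7 and Lgals3 in 4. Without HFD replicate 1 the adjusted p was 0.0764 for Lgals1, 0.121 for Anxa2 and 0.206 for Lgals3, and without HFD replicate 4 it was 0.0829 for S100a10. Of the 3 scalings Anxa2 passed under 1 and Lgals3 under 0.

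Interferon response genes were positive as a list: the fold change was above 0 in 41 of 41 tested members, the median was 0.48 (0.41 to 0.46 under the 3 scalings), and 27 members passed an unadjusted p of 0.05. Over all tested genes 62.7% were positive, and 1850 of 11376 passed that unadjusted p by limma in either direction. Only 2 members of the list passed after adjustment over all genes, Zbp1 and Gbp7, against 0.879% of all tested genes called higher. This list was chosen with earlier results of these data known. The list's mean log2(TPM + 1) was 4.18, 3.68, 3.43 and 3.62 in HFD, 2.81, 2.92, 3.59 and 3.27 in NFD and 3.27, 3.35, 3.26 and 3.39 in NAC_HFD. NFD replicate 3 thus lay inside the HFD range and HFD replicate 1 stood above the rest. Zbp1 (chr2:173206612-173218959), a sensor of Z-form nucleic acids that can trigger necroptosis, stood at 19.4, 9.7, 8.19 and 9.24 TPM in HFD, 3.49, 3.24, 5.2 and 4.27 TPM in NFD and 5.53, 7.5, 4.57 and 4.98 TPM in NAC_HFD. Its fold change was 1.06 ± 0.20 (adjusted p = 0.0290), with all 4 HFD livers above the other 8 and HFD replicate 1 far above the others of its group.

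Gbp7, an interferon-induced guanylate-binding protein, stood at 13.3, 10.2, 8.13 and 8.8 TPM in HFD, 4.72, 5.08, 6.22 and 5.79 TPM in NFD and 7.4, 7.62, 7.91 and 7.91 TPM in NAC_HFD (0.55 ± 0.11, adjusted p = 0.0377). HFD replicate 3 was barely above the highest NAC_HFD liver. Its neighbour Gbp2 rose in the means from 1.58 TPM in NFD over 2.86 TPM in NAC_HFD to 4.22 TPM in HFD but did not pass (0.68, interval 0.28 to 1.08, adjusted p = 0.106). Psmb8, an immunoproteasome subunit, did not pass either (0.48, adjusted p = 0.0916). Zbp1 passed in 7 and Gbp7 in 3 of the 12 left-out fits, with an adjusted p of 0.0969 for Zbp1 without HFD replicate 2 and 0.143 for Gbp7 without HFD replicate 1. Gbp7 passed under 0 of the 3 scalings and Zbp1 under 3.

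Outside that list, 3 neighbouring genes of the Ifi200 family on chromosome 1, which encode interferon-induced sensors of DNA, were called together; they were picked out after their values were seen. Ifi204 averaged 6.28 ± 1.07 TPM in HFD, 3.34 ± 0.607 TPM in NFD and 3.87 ± 0.478 TPM in NAC_HFD (0.66, adjusted p = 0.0246). Ifi207 averaged 4.04 ± 0.323, 2.24 ± 0.410 and 3.04 ± 0.484 TPM in the same order (0.48, adjusted p = 0.0475). Ifi213 averaged 3.01 ± 0.466, 1.38 ± 0.416 and 1.88 ± 0.557 TPM (0.63, adjusted p = 0.0459). Near-identical copies exist in this family. The submitters' notes name RSEM, but not the settings with which it divided reads among such copies. Ifi204 passed in 9 left-out fits, Ifi213 in 2 and Ifi207 in 1.

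Promoters of these genes were searched for the core of the interferon-stimulated response element, written GAAANNGAAA and read on both strands from 250 bases before to 50 after the RefSeq start (build GRCm38.p6). It occurred in 3.92% of 8785 tested genes with a promoter sequence, in 18 of 29 genes of the interferon list (62.1%), in 7 of the 72 higher genes with a promoter (9.72%: Agxt2, Gbp7, Ifi207, Ifi213, Pla2g6, Saa3 and Tmem140) and in 0 of 9 lower genes. A match describes the letters only. The 120 bases before the start are shown for 4 genes, to let the match be read in a list member that was called, its neighbour that was not, and a pair of called genes outside the list chosen after their values were seen; each is 5′ to 3′ on the gene's strand, and capitals mark the match.
Gbp7: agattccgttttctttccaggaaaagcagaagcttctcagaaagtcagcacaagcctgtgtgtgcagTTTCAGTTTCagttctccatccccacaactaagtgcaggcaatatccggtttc
Gbp2: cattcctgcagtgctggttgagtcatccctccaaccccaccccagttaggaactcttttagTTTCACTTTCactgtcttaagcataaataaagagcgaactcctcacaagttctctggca
Ifi207: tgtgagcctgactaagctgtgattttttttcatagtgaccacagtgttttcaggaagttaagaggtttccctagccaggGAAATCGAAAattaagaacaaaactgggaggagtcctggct
Tmem140: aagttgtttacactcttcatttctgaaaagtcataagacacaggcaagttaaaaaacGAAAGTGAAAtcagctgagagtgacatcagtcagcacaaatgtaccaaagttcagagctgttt
Gbp7 (chr3:142530216-142530335, plus strand) and Gbp2 (chr3:142620543-142620662, plus strand) carry it in reverse orientation, 53 and 59 bases before the start. Ifi207 (chr1:173741810-173741929, minus strand) and Tmem140 (chr6:34863026-34863145, plus strand) carry it forward, 41 and 63 bases before the start. Tmem140, a membrane protein gene, was among the steadier calls, at 13.4, 16.4, 16.6 and 14.8 TPM in HFD, 8.51, 9.92, 6.13 and 8.02 TPM in NFD and 7.27, 7.27, 10.01 and 9.55 TPM in NAC_HFD (0.82 ± 0.12, adjusted p = 0.00815, passing in 12 of 12 left-out fits). A direct repeat of the kind bound by PPAR receptors, AGGNCANAGGNCA, occurred in 0.387% of tested promoters, in 1 of 72 higher genes (Cyp2d40) in 1 of 24 genes of the uptake list (Fabp1) and in 0 of 22 genes of the fatty acid oxidation and PPARalpha list.

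Kupffer cells are the macrophages that reside in liver sinusoids, and their markers had the largest median of any list with at least 5 tested members, 0.61 over 14 tested genes, yet 0 of them were called. At an unadjusted p under 0.05, 11 were higher and 1, C6, was lower. Over all tested genes 1850 of 11376 had an unadjusted p under 0.05 by limma in either direction. The list's mean log2(TPM + 1) was 3.91, 4.04, 3.45 and 4.50 in HFD, against 3.20 to 3.87 in NFD and 3.14 to 3.85 in NAC_HFD, so HFD replicate 3 lay among the others. Clec4f, a lectin of Kupffer cells, stood at 27.3, 30.4, 17.2 and 36.5 TPM in HFD, 18.4, 13.2, 23.7 and 18.6 TPM in NFD and 19.98, 11.3, 13.2 and 18.2 TPM in NAC_HFD (0.66, interval 0.22 to 1.11, adjusted p = 0.154). The order of the HFD libraries was not the same in the interferon list, where replicate 1 was highest, and in the Kupffer list, where replicate 4 was. MHC class I and immunoproteasome genes gave 0 calls of 20 (median 0.26, 14 at an unadjusted p under 0.05, all higher) and MHC class II genes 0 of 7 (median 0.43), and chemokine and adhesion genes 0 of 18 (median 0.36). How far a share of macrophages took part in the galectin and interferon values was not tested. The lists of this paragraph were also chosen with earlier results of these data known.

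**Figure D4:**
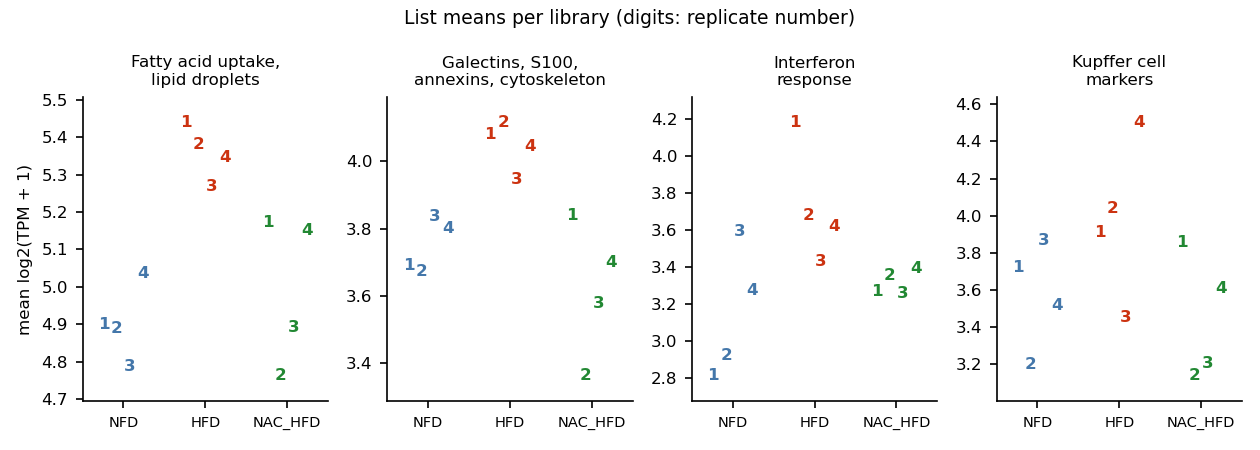
Mean log2(TPM + 1) of the tested members of 4 gene lists in each library, with the digit giving the replicate number. All 4 HFD libraries lie above the other 8 in the uptake and galectin panels; in the interferon panel NFD replicate 3 and in the Kupffer panel HFD replicate 3 break the separation.

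Among secreted inflammatory genes Saa3 passed and Saa1 did not. Saa3 (chr7:46711998-46719615), the serum amyloid A of macrophages and adipose cells, stood at 25.4, 17.9, 10.7 and 17.7 TPM in HFD, 6.14, 6.77, 9.64 and 4.71 TPM in NFD and 9.63, 9.66, 7.08 and 8.0 TPM in NAC_HFD (1.09 ± 0.20, adjusted p = 0.0288). All 4 HFD livers were above the rest, HFD replicate 3 by the least. Saa1, the main hepatic acute phase protein, was at 119, 78.2, 38.05 and 1936 TPM in HFD, so its mean rested on replicate 4, and the interval of its fold change ran from -0.82 to 3.77 (adjusted p = 0.521). Of 30 acute phase and complement genes tested 1 was called, Saa3, with a list median of 0.21. Over all tested genes 0.879% were called higher.

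Cfd (chr10:79890853-79892655), which encodes complement factor D (adipsin), a protease known mainly from fat cells, had the largest fold change. It stood at 4.87, 4.74, 6.63 and 32.7 TPM in HFD, 0.58, 0.05, 0.05 and 0.12 TPM in NFD and 1.6, 0.19, 0.11 and 1.75 TPM in NAC_HFD. All 4 HFD livers were above the other 8, but replicate 4 was far above the other 3. The fold change was 2.74 ± 0.47 (adjusted p = 0.0308). Cfd passed in 5 of the 12 left-out fits, with an adjusted p of 0.0857 without HFD replicate 1. Those fits used the expression filter, which Cfd met only because the HFD livers did. With every gene above 0 tested, the adjusted p of Cfd was 0.0429 by limma. Of the other adipose markers, Adipoq was at most 0.15 TPM, Plin1 at most 0.27 and Retn at most 0.12 in any library, and Lpl ranged from 5.32 to 8.82 TPM with no separation of HFD.

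Themis (chr10:28668360-28883820), known from T cell development, rose in the means from 0.490 TPM in NFD over 1.29 TPM in NAC_HFD to 3.74 TPM in HFD. Single HFD livers had 4.51, 2.05, 2.93 and 5.47 TPM, all above the highest of the other 8 at 1.86 TPM (1.33 ± 0.22, adjusted p = 0.0246, passing in 10 of 12 left-out fits). Themis met the expression filter only because the HFD livers did, and the left-out fits used that filter. With every gene above 0 tested, the adjusted p of Themis was 0.0516 by limma and it did not pass. Summed T and NK cell markers were 2.72 to 4.47 TPM in HFD, 2.34 to 3.52 in NFD and 2.58 to 5.81 in NAC_HFD, overlapping throughout, and 0 of the 8 markers in the table passed the expression filter. Stap1, an adaptor of immune receptor signalling, stood at 3.02, 1.84, 2.25 and 1.91 TPM in HFD, 0.92, 0.50, 0.66 and 0.65 TPM in NFD and 1.05, 0.58, 1.07 and 0.68 TPM in NAC_HFD (0.88 ± 0.12, adjusted p = 0.00460). It passed in 12 of 12 left-out fits, although its leading transcript carried only 35.4% of the gene's value in HFD. Stap1 too met the expression filter only because the HFD livers did, and the left-out fits used that filter. With every gene above 0 tested, the adjusted p of Stap1 was 0.0159 by limma.

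In several genes the means rose in steps, with NAC_HFD between NFD and HFD. For these genes NAC_HFD passed against NFD, while HFD against NAC_HFD alone did not pass. Lect2 (chr13:56529734-56548559), a secreted hepatokine, stood at 166, 166, 160.4 and 166 TPM in HFD, 82.5, 89.5, 69.1 and 89.4 TPM in NFD and 123, 129, 152 and 121 TPM in NAC_HFD. No 2 groups overlapped. Its fold change was 0.66 ± 0.09 (adjusted p = 0.00460), and NAC_HFD exceeded NFD by 0.66 (adjusted p = 0.00601). Car3 (chr3:14863538-14872381), the abundant carbonic anhydrase of liver and fat, stood at 1879, 2061, 2053 and 1854 TPM in HFD, 855, 808, 391 and 727 TPM in NFD and 1324, 1249.8, 1781 and 1791 TPM in NAC_HFD. NAC_HFD replicates 3 and 4 lay just below the HFD livers and replicates 1 and 2 about midway to NFD, with NAC_HFD above NFD by 1.18 (adjusted p = 0.0102) and HFD above the average of both by 0.96 ± 0.18 (adjusted p = 0.0294). HFD minus NAC_HFD was 0.37 for Car3 (interval -0.08 to 0.82, adjusted p = 0.398 by limma).

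Slc13a3, a sodium-coupled dicarboxylate transporter, averaged 2.76 ± 0.517 TPM in NFD, 5.63 ± 0.270 TPM in NAC_HFD and 8.29 ± 1.78 TPM in HFD (0.88 ± 0.12, adjusted p = 0.00460; NAC_HFD above NFD by 0.83, adjusted p = 0.00654). Gpc1, the heparan sulfate proteoglycan glypican-1, averaged 3.16 ± 0.681, 5.95 ± 1.53 and 8.81 ± 1.33 TPM in the same order (0.88, adjusted p = 0.0159; NAC_HFD above NFD by 0.73, adjusted p = 0.0247). Both had all 4 HFD livers above the other 8. Lect2 and Slc13a3 passed in all 12 left-out fits, Gpc1 in 9 and Car3 in 6 (and under 1 of the 3 scalings), with an adjusted p of 0.121 for Car3 without HFD replicate 1.

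In Rab30 and Sema5b the NAC_HFD livers did not pass against NFD. Rab30 (chr7:92741637-92844535), a small GTPase of the Golgi, stood at 17.9, 13.8, 10.9 and 15.4 TPM in HFD, 5.9, 7.44, 3.98 and 5.6 TPM in NFD and 7.3, 5.85, 8.46 and 6.97 TPM in NAC_HFD. Its fold change was 1.06 ± 0.14 (adjusted p = 0.00460), and the difference of NAC_HFD from NFD, 0.29, had an interval from -0.07 to 0.65. Sema5b (chr16:35541154-35664261), a membrane semaphorin, stood at 2.16, 2.39, 2.72 and 2.19 TPM in HFD, 0.56, 0.44, 0.14 and 0.43 TPM in NFD and 1.1, 0.40, 1.09 and 0.94 TPM in NAC_HFD (1.07 ± 0.12, adjusted p = 0.00460). NAC_HFD minus NFD was 0.43 (interval 0.12 to 0.73, adjusted p = 0.0982), with 3 of the 4 NAC_HFD livers above every NFD liver. Its 4 HFD livers were close together, with an SD of 0.258 TPM, and both Rab30 and Sema5b passed in all 12 left-out fits. Sema5b met the filter of those fits only because the HFD livers did. With every gene above 0 tested, the adjusted p of Sema5b was 0.0159 by limma.

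Genes whose NAC_HFD mean lay below NFD included the receptor Nr1i3 and the ligand Gas6. Nr1i3 (chr1:171213934-171218845) encodes the constitutive androstane receptor, which controls drug-metabolizing enzymes. It stood at 215, 234, 226 and 178 TPM in HFD, 145, 170.0, 131 and 145 TPM in NFD and 121, 84.1, 163 and 106 TPM in NAC_HFD (0.70 ± 0.14, adjusted p = 0.0377; NAC_HFD minus NFD -0.35, interval -0.71 to 0.01). Gas6, the ligand of the TAM receptor kinases, averaged 25.6 ± 6.72 TPM in HFD, 17.2 ± 1.6 TPM in NFD and 12.6 ± 3.17 TPM in NAC_HFD (0.74, adjusted p = 0.0475). Cyp2b9, a cytochrome P450 gene, was at 99.3, 82.02, 20.5 and 49.9 TPM in HFD and 27.7, 5.95, 104 and 46.7 TPM in NAC_HFD. In NFD it was at 1.22 TPM or less. It did not pass against both groups (adjusted p = 0.0680) and did pass for NAC_HFD against NFD (4.44, adjusted p = 0.0158). Gas6 and Cyp2b9 are also members of the list of female-biased liver genes. The means of that list were highest in HFD replicates 1 and 2 and NAC_HFD replicates 3 and 4. Cyp2b9 was highest in NAC_HFD replicate 3 and HFD replicates 1 and 2. The part of that difference between libraries in these values was not tested. Nr1i3 passed in 4 and Gas6 in 3 of the 12 left-out fits, and without HFD replicate 1 Gas6 reached an adjusted p of 0.208. Under the 3 scalings neither Nr1i3 nor Gas6 passed.

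Of the 34 glutathione and NRF2 target genes tested, 1 was called, the thioredoxin gene Txn1 (0.879% of all tested genes were called higher). In this list 29 were positive with a median of 0.16, and 62.7% of all tested genes were positive. Txn1 (chr4:57943373-57956411) stood at 129, 136, 113 and 108 TPM in HFD, 101, 99.4, 79.2 and 98.02 TPM in NFD and 85.4, 80.7, 74.7 and 65.2 TPM in NAC_HFD (0.51 ± 0.10, adjusted p = 0.0316). All 4 HFD livers were above the other 8, and NAC_HFD was below NFD in the means without passing (-0.30, adjusted p = 0.142). It passed in 7 of the 12 left-out fits and under 1 of the 3 scalings, with an adjusted p of 0.153 without HFD replicate 1. Gclc, the rate-limiting enzyme of glutathione synthesis, had a fold change of 0.13 (interval -0.31 to 0.56), Hmox1 (heme oxygenase) 0.39 (-0.16 to 0.93) and Nqo1 (quinone reductase) 0.46 (0.12 to 0.80), and none of the 3 passed. Gpx1, the cytosolic glutathione peroxidase, had NAC_HFD values from 1154 to 1489.9 TPM against 1413 to 1516 TPM in HFD and 831 to 1155 TPM in NFD (adjusted p = 0.0990). Of 25 genes of cysteine and methionine metabolism 0 were called, with a median of 0.05.

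Of the 10 lower genes 8 are described here, and the others are Adgrf1, an adhesion receptor gene, and the predicted gene Gm3839. Apom (chr17:35128997-35131801), the apolipoprotein that carries sphingosine 1-phosphate on HDL, stood at 95.4, 92.5, 108 and 97.6 TPM in HFD, 159, 160.1, 173 and 158 TPM in NFD and 115, 115, 127 and 123 TPM in NAC_HFD. No 2 groups overlapped, and it fell by 0.50 ± 0.07 (adjusted p = 0.00738) while NAC_HFD was lower than NFD (-0.43, adjusted p = 0.0138). Ces2a, a carboxylesterase that hydrolyses acylglycerols, stood at 64.5, 56.4, 66.9 and 53.2 TPM in HFD, 109, 115, 90.8 and 85.5 TPM in NFD and 85.5, 75.8, 103 and 84.7 TPM in NAC_HFD (-0.62 ± 0.11, adjusted p = 0.0246). Cib3, a calcium- and integrin-binding protein, averaged 0.927 ± 0.308 TPM in HFD, 3.405 ± 1.42 TPM in NFD and 1.92 ± 0.129 TPM in NAC_HFD (-0.89 ± 0.16, adjusted p = 0.0246).

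Avpr1a and Csrnp1 were lower in HFD while their NAC_HFD means lay above NFD. Avpr1a (chr10:122448499-122453453), the vasopressin receptor of hepatocytes, stood at 3.74, 3.51, 4.79 and 3.1 TPM in HFD, 5.2, 5.02, 8.6 and 5.87 TPM in NFD and 6.96, 7.74, 7.25 and 7.73 TPM in NAC_HFD (-0.70 ± 0.13, adjusted p = 0.0269; NAC_HFD minus NFD 0.26, interval -0.05 to 0.57). Csrnp1, a nuclear protein gene of the immediate early kind, stood at 6.34, 5.45, 6.15 and 6.49 TPM in HFD, 9.56, 8.31, 10.2 and 11.6 TPM in NFD and 7.43, 12.1, 12.2 and 13.4 TPM in NAC_HFD (-0.68 ± 0.13, adjusted p = 0.0290). Itih5, an inter-alpha-trypsin inhibitor heavy chain, fell by 0.63 ± 0.13 (adjusted p = 0.0400). These 3 had all HFD livers below the other 8. Apom passed in 11 of the 12 left-out fits, Ces2a, Cib3 and Avpr1a in 9 each, Csrnp1 in 7 and Itih5 in 5, with adjusted p of 0.120 for Csrnp1 without HFD replicate 2 and 0.178 for Itih5 without HFD replicate 1. Itih5 passed under 2 of the 3 scalings.

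Called lower too were Cyp2c69 and Cyp2c40, neighbours on chromosome 19 of a cytochrome P450 family with close paralogs. Both are members of the list of female-biased liver genes. Cyp2c69 averaged 2.395 ± 0.479 TPM in NFD, 0.217 ± 0.0780 TPM in HFD and 0.152 ± 0.134 TPM in NAC_HFD, and the difference of NAC_HFD from NFD (-1.55, adjusted p = 6.12e-05) was larger than that of HFD from both (-0.69, adjusted p = 0.0133). The HFD and NAC_HFD livers overlapped, so Cyp2c69 is not peculiar to HFD although the contrast called it. Cyp2c69 met the expression filter through the NFD livers alone, so a difference from NFD was built into its selection. Cyp2c40 averaged 15.98 ± 4.52, 6.46 ± 1.004 and 9.62 ± 2.57 TPM in the same order (-0.82, adjusted p = 0.0499), at the edge of the threshold, and passed in 2 of 12 left-out fits and under 0 of the 3 scalings; its NAC_HFD livers did not pass against NFD (-0.67, adjusted p = 0.0776). Igfbp2, an insulin-like growth factor binding protein, was set apart below without passing, at 125, 128, 184 and 90.6 TPM in HFD, 290.2, 190.4, 474 and 364 TPM in NFD and 249.8, 223, 194 and 199 TPM in NAC_HFD (-1.02, interval -1.50 to -0.53, adjusted p = 0.0557). The values nearest the threshold on its outer side were those of Slc22a5 and Aldh1a1, both at an adjusted p of 0.0508.

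Most other function lists gave no call. None of 24 cholesterol synthesis genes was called in HFD against both groups (median 0.24), and the bile acid list gave 0 of 21, with Cyp7a1, the rate-limiting enzyme of bile acid synthesis, at 0.02 (interval -0.60 to 0.65). Cytosolic heat shock genes had a median of 0.00 and 0 of 22 called, ribosomal protein genes -0.11 and 0 of 70, and nuclear oxidative phosphorylation genes 0.07 and 0 of 47. The heat shock median combines opposite parts, -0.27 for HFD against NFD and 0.27 against NAC_HFD. In NAC_HFD against NFD 12 of those 22 genes were called lower, and 3.52% of all tested genes. Ribosomal medians were -0.23 for HFD against NFD and 0.02 against NAC_HFD, and cholesterol synthesis medians -0.02 and 0.42. Fibrosis and matrix genes gave 0 of 21 (median 0.09), stellate cell markers 0 of 8 (0.06) and sinusoidal endothelial markers 0 of 8 (0.09). The cell cycle list had 1 call of 13, the replication helicase subunit Mcm2, at 1.22 ± 0.0873 TPM in HFD, 0.672 ± 0.108 TPM in NFD and 0.580 ± 0.182 TPM in NAC_HFD (0.45, adjusted p = 0.0372, passing in 3 of 12 left-out fits and under 0 of the 3 scalings). Mcm2 met the filter through the HFD livers alone, so this call is not read as a result about the list. With every gene above 0 tested its adjusted p was 0.0514 by limma. Over all tested genes 0.879% were called higher.

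**Figure D5:**
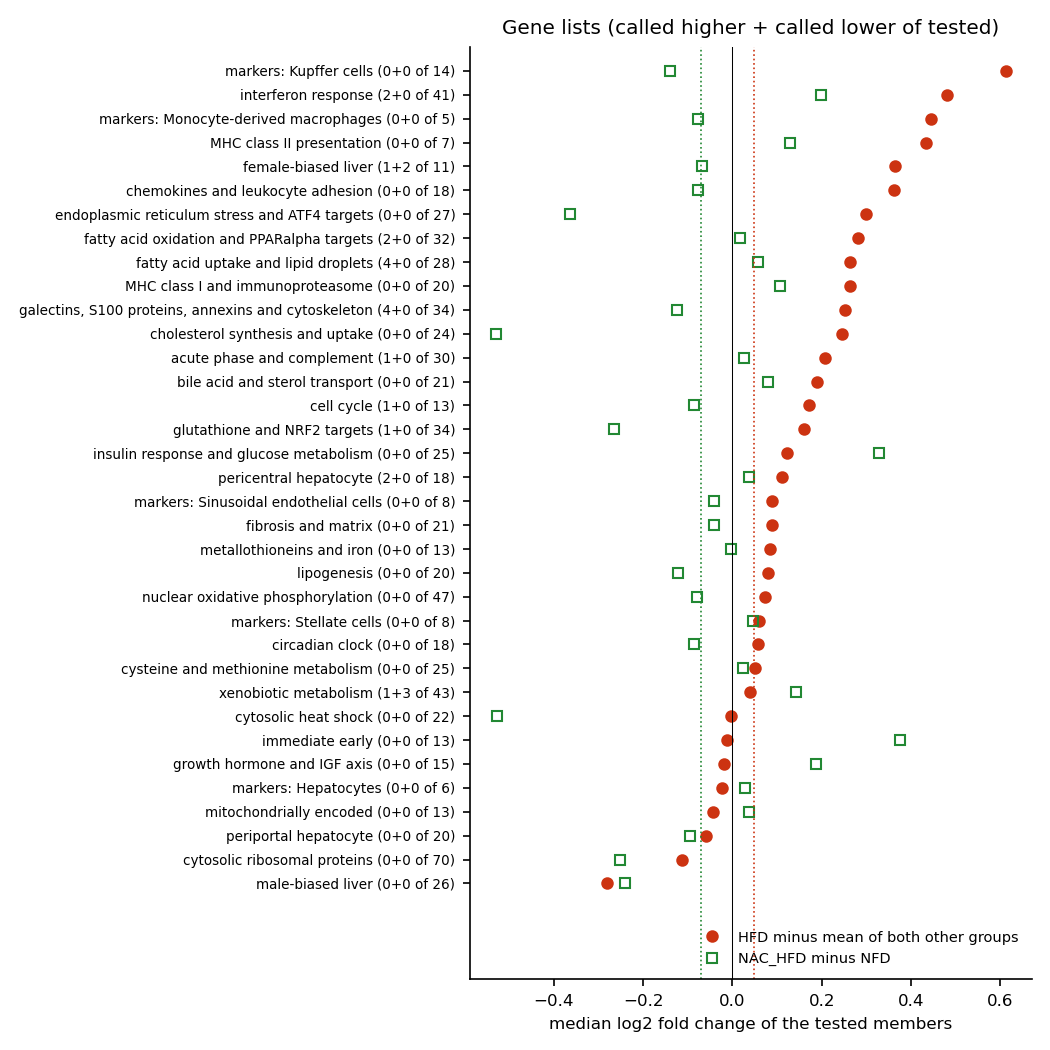
Median log2 fold change of the tested members of each list with at least 5 tested genes, for HFD against the mean of both other groups (filled circles) and for NAC_HFD against NFD (open squares), with dotted lines at the medians of all tested genes. Among the filled circles, Kupffer and interferon lists lie farthest to the right and male-biased liver genes farthest to the left. The numbers in brackets are genes called higher and lower of those tested.

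Among 52170 lncRNA transcripts in the deposited table, 25205 had at least 0.1 TPM in at least 4 libraries, and limma on log2(TPM + 0.1) called 5 (0.0198%), 3 higher (0.0119%) and 2 lower (0.00793%) in HFD, with 1952 at an unadjusted p under 0.05. The transcript XR_872040.2 stood at 5.86, 4.88, 4.88 and 3.45 TPM in HFD, at 0.75 TPM in NFD replicate 3, and was listed at 0 in the other 7 libraries (adjusted p = 0.00488). ENSMUST00000161676, a noncoding transcript of the Hes1 gene, stood at 1.89, 1.29, 1.23 and 0.76 TPM in HFD and was listed at 0 in the other 8 (adjusted p = 0.000150). NONMMUT009801.2, assigned to Rapgef6, averaged 0.778 ± 0.159 TPM in HFD and 0.0750 ± 0.0881 TPM in NAC_HFD and was listed at 0 in NFD (adjusted p = 0.0153). All 3 had every HFD liver above the other 8. They reached the filter of 0.1 TPM in 4 libraries only through the HFD livers, with 1, 0 and 2 other libraries at 0.1 TPM in that order, so their separation and p were favoured by the way they were admitted.

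ENSMUST00000227786 of Ermard was listed at 0 in 3 HFD livers and at 0.43 TPM in the other, against 0.985 ± 0.211 TPM in NFD and 2.32 ± 0.442 TPM in NAC_HFD (adjusted p = 0.0219). ENSMUST00000147944 of Prelid3b was listed at 0 in all 4 HFD livers, against 0.498 ± 0.223 TPM in NFD and 0.565 ± 0.356 TPM in NAC_HFD (adjusted p = 0.0385). The genes they belong to did not follow: Hes1 had an adjusted p of 0.257, Ermard 0.328, Rapgef6 0.681 and Prelid3b 0.927. Values listed at 0 in a table of TPM can be failed estimates, so no fold is given for them.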

How the data were processed

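Liver RNA of 12 C57BL/6 libraries was measured, grouped by the labels into NFD, HFD and NAC_HFD with 4 each. The deposited gene and transcript tables hold TPM made by the authors; per the submitters' processing notes fastp, HISAT and RSEM were used with build GRCm38, with versions and settings not given in the sources used here. TPM keeps no depth, so no counting interval or floor was given, and because the total is fixed, abundant transcripts that rise lower the rest. For each table, limma 3.58.1 fitted 3 group means over the 12 libraries (lmFit, eBayes with trend and robust, 9 residual degrees of freedom) in R 4.3.3 on log2(TPM + 1), or log2(TPM + 0.1) for lncRNA transcripts. Tests were two-sided with Benjamini-Hochberg adjustment over each table, a threshold of 0.05 and 95% intervals. Positions were found for 95.4% of tested genes. The 43 lists, the panel of 26 genes and the libraries compared were chosen with earlier results of these data known. Named genes are the 14 highest and 10 lowest called genes set apart (6 lower ones passed), up to 4 called members of each list, the panel, and up to 3 called lncRNA transcripts each way; predicted genes were left out, and 1 gene that the rule names is not reported here. The steps were tested on simulated data. Alternatives were other pseudocounts, filters, scalings and models, the replicate block, and leaving out each library. The authors' comparison tables were not used, and the lncRNA of the series title was not analysed here.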

Additional observations from a re-analysis of the deposited data

Results flagged for a closer look

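Within the groups of 4 libraries of the 55 named genes, 13 of 165 groups (7.88%) held a library whose gap to the nearest of the other 3 took more of the group's range than Dixon's 95% critical value for 4 samples; chance gives about 5%. In HFD these were Cfd at 32.7 TPM in replicate 4 (the others 4.74 to 6.63), Zbp1 at 19.4 TPM in replicate 1 (8.19 to 9.70), Saa1 at 1936 TPM in replicate 4 (38.1 to 119), Fitm1 at 25.8 TPM in replicate 2 (34.7 to 35.7) and Lect2 at 160.4 TPM in replicate 3 (166.2 to 166.5). In NFD, replicate 3 stood out for Apom at 173 TPM (157.8 to 160.1), Fabp2 at 82.1 TPM (44.3 to 48.1) and Txn1 at 79.2 TPM (98.0 to 101), and replicate 2 for Cib3 at 5.52 TPM (2.49 to 2.92), Anxa2 at 3.61 TPM (4.30 to 4.36) and Srebf1 at 27.4 TPM (12.7 to 14.7). NFD replicate 1 stood out for Cfd at 0.58 TPM (0.05 to 0.12). In NAC_HFD the only one was Mogat1 at 0.31 TPM in replicate 2 (0.88 to 0.92).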

How the results depend on the processing

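Depth is unknown, so its part in any missing call could not be judged. The count of 110 genes called in HFD against both other groups was 84 and 99 with pseudocounts of 0.1 and 0.5 and 100 without trend and robust fitting. It moved to 26 with every gene above 0 tested (19252 genes), 58 with a minimum of 5 TPM, 52, 48 and 56 under median-of-ratios, quantile and common-sum scaling, 22 with NFD and NAC_HFD as a single group, 406 with weights for each library, and 0 without the 4 libraries low in male-biased genes, a setting chosen after seeing the data; the cause was not tested, except that the wider filter tests more genes. Leaving out 1 library each gave 11 to 145 genes here, 211 to 618 for NAC_HFD against NFD, 90 to 375 for HFD against NFD, 0 to 64 for HFD against NAC_HFD, 265 to 739 for NFD against both, 19 to 355 for NAC_HFD against both and 2 to 6 for lncRNA transcripts. It gave 243 to 576 genes set apart, a count that can only stay or rise when a library is left out.

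Testing every gene above 0 also moved NAC_HFD against NFD to 289, HFD against NFD to 168, NFD against both to 384 and NAC_HFD against both to 49. Weights moved HFD against NFD to 884, HFD against NAC_HFD to 157, NFD against both to 1106 and NAC_HFD against both to 359, and quantile normalization moved the last to 117. A minimum of 1 TPM left 0 called lncRNA transcripts.

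Replicate numbers are shared between groups but did not pair the libraries: same-numbered libraries correlated at -0.17 to 0.18, 2 of 12 pairs over 0.1, and 3 of 12 libraries correlated best with their own number. With the replicate number as a block the counts were 54 for HFD against both (47 of them among the 110), 3 for HFD against NAC_HFD, 408 for NFD against both and 2 lncRNA transcripts.

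Cyp7a1 (0.02) changed sign under median-of-ratios (-0.0352), quantile (-0.0633) and common-sum scaling (-0.00216), with weights (-0.0734), and when single libraries were left out (-0.152 to 0.138 over all 12). Cyp4a14 (-0.06) changed sign with weights (0.0421) and when single libraries were left out (-0.274 to 0.0680). Of the other results for named genes under the alternatives, 935 kept direction and side of the threshold, 288 lost the call in the same direction and 14 gained it.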

Other observations

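Further called genes are described here. They were chosen after their values were seen, so they add no support to the lists above. Gpat3, a glycerol-phosphate acyltransferase of triglyceride synthesis, stood at 6.51, 4.31, 2.87 and 4.78 TPM in HFD, 1.76, 1.38, 1.99 and 2.79 TPM in NFD and 2.06, 1.49, 2.78 and 2.34 TPM in NAC_HFD (0.85, adjusted p = 0.0361 by limma). All 4 HFD livers were above the other 8, the lowest by little. Osbpl3, an oxysterol-binding protein relative, averaged 2.11 ± 0.782 TPM in HFD, 0.623 ± 0.171 TPM in NFD and 0.853 ± 0.307 TPM in NAC_HFD (0.82, adjusted p = 0.0246), and met the expression filter only because the HFD livers did. Aldh3a2, the fatty aldehyde dehydrogenase, averaged 268 ± 16.96, 157 ± 18.9 and 175 ± 39.2 TPM in the same order (0.70, adjusted p = 0.0274). Gstk1, a glutathione transferase of mitochondria and peroxisomes, averaged 104 ± 8.39, 70.01 ± 5.98 and 77.3 ± 12.3 TPM (0.51, adjusted p = 0.0377), and Taldo1, the pentose phosphate enzyme transaldolase, 54.9 ± 4.02, 39.3 ± 3.28 and 37.1 ± 4.98 TPM (0.52, adjusted p = 0.0246). In the 12 left-out fits Osbpl3 and Taldo1 passed in 9 each, Aldh3a2 in 8, and Gpat3 and Gstk1 in 6 each. Those fits kept the filter that Osbpl3 met through the HFD livers.

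A different shape was that of Adgrv1, a large adhesion receptor, and Dio1, the deiodinase that activates thyroid hormone, where both high fat groups were far above NFD and overlapped. Adgrv1 stood at 8.65, 9.54, 7.46 and 11.4 TPM in HFD, 12.4, 5.92, 5.17 and 6.62 TPM in NAC_HFD and 1.37, 0.89, 0.81 and 0.77 TPM in NFD, and Dio1 at 96.6, 92.99, 106 and 119.8 TPM, 102, 84.9, 76.7 and 74.4 TPM and 27.8, 38.7, 21.1 and 32.3 TPM. Both were called in the pooled contrast (1.35 and 1.04, adjusted p = 0.00460 for each by limma), because NFD is one part of the average, while NAC_HFD against NFD gave larger differences (2.06 and 1.49).

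The libraries differed in sex-biased liver genes. The mean log2(TPM + 1) of 26 male-biased genes was 7.41, 7.72, 8.54 and 8.45 in HFD replicates 1 to 4, against 8.28 to 8.54 in NFD and 8.50, 8.69, 7.74 and 7.78 in NAC_HFD replicates 1 to 4. Of 11 tested female-biased genes 1 was called higher (Gas6) and 2 lower (Cyp2c40 and Cyp2c69). Over all tested genes 0.879% were called higher and 0.0879% lower. The means of that list were 4.36, 4.33, 3.49 and 3.58 in HFD replicates 1 to 4, 3.304 to 3.553 in NFD and 3.20, 3.04, 3.94 and 3.99 in NAC_HFD replicates 1 to 4. HFD replicates 1 and 2 and NAC_HFD replicates 3 and 4 were thus the lowest in the male-biased and the highest in the female-biased list.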
